A study of Mus musculus with 2 samples.

Results

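The transcripts of 10 genes for integrin subunits and for the dystroglycan complex were followed in single cells of mouse inter-limb somites. The genes were Itga4, Itga5, Itga6, Itga7, Itga8, Itga9, Itgav, Itgb1, Dag1 and Sgca, taken by symbol out of 27998 genes in the count tables. Cells came from wild type C57BL/6 embryos of 2 stages, E9.5 and E11.5, and each library pooled 3 embryos of 1 stage. Without a second library at either stage, no test between stages or gates was possible. Intervals are therefore exact 95% counting intervals of the libraries, and stage and library cannot be told apart.

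Integrins are receptors made of an alpha and a beta chain that span the plasma membrane and tie the extracellular matrix to the cytoskeleton. The beta chain encoded by Itgb1 can pair with each of the 7 alpha chains studied, and the alpha chain sets the ligand: mainly laminins for Itga6 and Itga7, fibronectin for Itga5, fibronectin and Vcam1 for Itga4, nephronectin for Itga8, tenascin C and Vcam1 for Itga9, and RGD-containing proteins for Itgav. Dag1 encodes dystroglycan, a laminin receptor that works through its sugar chains and binds dystrophin inside the cell. Sgca encodes alpha-sarcoglycan, which is known from striated muscle, where it stabilises the dystrophin complex. In the somite, myogenic cells leave an epithelium, cross or settle on basement membranes and differentiate, so the matrix receptors on their surface are of long-standing interest.

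Muscle cells were sorted in silico into gates by their own transcripts, each counted as unique molecular identifiers (UMIs), the tags that mark single captured molecules. The Acta1 gate held cells with at least 5 Acta1 and 1 Myog UMIs, the Myog gate other cells with at least 3 Myog UMIs, the Myod1 gate those with at least 2 Myod1 UMIs, and the Pax3/Pax7 gate those with at least 2 UMIs of Pax3 plus Pax7. At E9.5 the Pax3/Pax7 gate held 1020 cells, the Myog gate 25, the Acta1 gate 7 and the Myod1 gate none. At E11.5 the Pax3/Pax7, Myod1, Myog and Acta1 gates held 479, 225, 338 and 194 cells. Cells that also passed the gate of another tissue were left out, which removed 992 cells from the Pax3/Pax7 gate at E9.5 and 167 at E11.5. Levels are given as UPM, the UMIs of a gene per 1000000 UMIs of all cells of a gate, and were not divided by gene length.

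After filtering, the E9.5 library held 9851 cells and the E11.5 library 9595, with median depths of 12462 and 12479 UMIs, and 30 cell barcodes occurred in both. Tissue gates were checked with markers that had not chosen the cells: of 92 marker values in 27 gates, 75 were at least 2-fold above the level of all cells. The E11.5 gate on Pax2, Pax8, Emx2, Wt1 and Gata3 lacked such enrichment for the nephric genes Lhx1 and Ret, and the E11.5 Scx gate lacked it for the tendon genes Tnmd and Mkx, so both are named here by the genes that chose them. In the muscle gates Mylpf and Myl1, genes of contracting muscle, were under 2-fold in the E11.5 Myog gate, Chrna1 and Rgs16, which are 2 of 4 markers, in the E11.5 Myod1 gate, and Itm2a in the E9.5 Pax3/Pax7 gate. Outside muscle Isl1 was under 2-fold in E11.5 lateral plate mesoderm, Meox2 at both stages and Prrx2 at E11.5 in Prrx1/Twist2 mesenchyme, Nes and Msi1 in E9.5 neural tube and Gap43 in E9.5 neurons, and Cdh16 was not detected in the E9.5 gate on Pax2, Pax8, Emx2, Wt1 and Gata3. Some of these lay far below the level of all cells. The ratio was 0.0251 for Chrna1 in the E11.5 Myod1 gate and 0.0301 for Isl1 in E11.5 lateral plate mesoderm. For Lhx1 and Ret in the E11.5 gate on Pax2, Pax8, Emx2, Wt1 and Gata3 it was 0.195 and 0.221. Gate names thus stand for the genes that chose the cells.

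Promoter sequence is shown for Sgca, the member that differed most between muscle gates among those with 50 or more UMIs, and for Itga4, the member that differed most between stages. RefSeq sequences of GRCm38.p6 were found for 8 of the 10 members. Capitals mark the E-box, CANNTG, the core motif bound by Myod1, Myog and many other basic helix-loop-helix factors. Each run holds the 250 bases before the annotated start, 5′ to 3′ on the strand of the gene, from chr11:94976328-94976577 on the minus strand for Sgca and chr2:79255176-79255425 on the plus strand for Itga4.
Sgca: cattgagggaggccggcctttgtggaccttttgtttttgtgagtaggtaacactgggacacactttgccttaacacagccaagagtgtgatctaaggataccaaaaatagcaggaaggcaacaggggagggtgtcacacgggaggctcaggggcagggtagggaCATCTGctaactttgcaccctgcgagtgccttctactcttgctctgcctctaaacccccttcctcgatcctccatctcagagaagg
Itga4: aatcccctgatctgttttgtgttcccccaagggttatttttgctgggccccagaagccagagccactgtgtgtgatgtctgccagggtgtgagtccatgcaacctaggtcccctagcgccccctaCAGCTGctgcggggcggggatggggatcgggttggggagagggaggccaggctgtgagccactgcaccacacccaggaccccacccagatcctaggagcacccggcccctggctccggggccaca
Each window held 1 E-box, CATCTG starting at position -86 in Sgca and CAGCTG at -125 in Itga4, counted back from the start. Over 32851 mouse promoter windows of the same length 66.2% held at least 1 E-box. CATCTG on either strand was in 14.4% of them and CAGCTG in 13%. The letters describe the window and do not show that a factor binds there.

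The Pax3/Pax7 cells of the 2 stages differed above all in the Itga4 and Itga6 transcripts. Itga4 (chr2:79255426-79333123, plus strand) stood at 1.38 UPM at E9.5, from 25 UMIs, and at 94.9 at E11.5, from 774 UMIs. This was 68.6-fold higher at E11.5, a log2 ratio of 6.10 with an interval of 5.53 to 6.74. Itga6 (chr2:71745616-71858416, plus strand) went the other way, from 55.4 UPM at E9.5 to 8.46 at E11.5, a log2 ratio of -2.71 (-3.09 to -2.36). Itgav (chr2:83724397-83806916, plus strand) was 2.24-fold higher at E11.5, at 13.7 against 6.14 UPM. The make-up of the gate also differed, with a Pax7 UMI in 106 of 1020 cells at E9.5 and in 273 of 479 at E11.5. At least 2 Myf5 UMIs were held by 105 and 196 cells. Itga4 was at 2.21 and 125 UPM at the 2 stages in cells with Pax7, and at 1.26 and 45.3 in those without. Itga6 was at 64.7 and 8.92, and at 54.1 and 7.72. The part of the make-up in the stage differences was not tested.

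Of the 10 members, 8 had at least 50 UMIs over both gates, and 2 of these were at least 2-fold higher and 1 at least 2-fold lower at E11.5. Among all 10851 genes with 50 UMIs, 11.9% were at least 2-fold higher and 4.81% at least 2-fold lower. Itgb1 (chr8:128685654-128733200, plus strand), the common beta chain, was at 104 and 136 UPM and Dag1 (chr9:108204634-108263958, minus strand) at 31.4 and 37, differences of 1.31-fold and 1.18-fold. Itga9 (chr9:118606690-118901003, plus strand) was at 23.5 and 30.5, Itga5 (chr15:103344286-103366763, minus strand) at 5.59 and 8.34, and Itga8 (chr2:12106632-12301922, minus strand) at 2.43 and 4.42. Sgca (chr11:94962791-94976327, minus strand) had 1 UMI at E9.5 and 14 at E11.5, a log2 ratio of 4.96 with an interval of 2.24 to 10.36. Itga7 (chr10:128933818-128958282, plus strand) had 3 UMIs at E11.5 and 0 at the earlier stage.

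Cells of the neural crest carried much Itga4 and Itga6 at E11.5, so their markers were read in the Pax3/Pax7 gate. The 4 neural crest and glia genes summed to 9.2 UPM in the E11.5 gate, against 862 in cells gated on them, with Sox10 and Foxd3 at 0. At E9.5 the sum was 7.69 against 562, with all 4 genes detected. With every cell left out that held any UMI of the neural crest, neural tube or neuron genes, the log2 ratio was 6.18 for Itga4 and -3.04 for Itga6. With the cells of other tissues kept in the gates, it was 5.09 for Itga4 and -1.05 for Itga6.

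**Figure D1:**
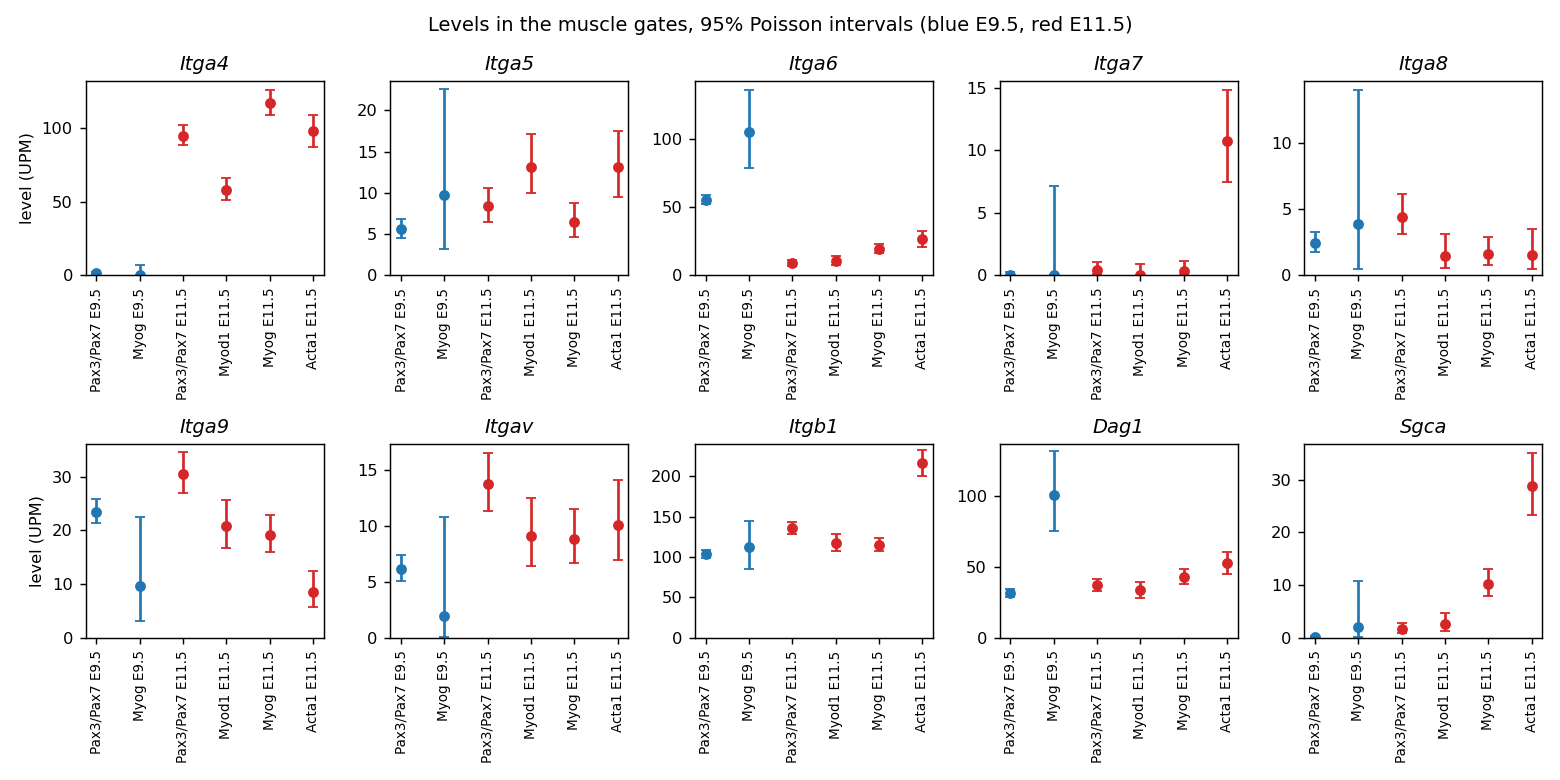
Level of each member in UPM (vertical axes, each from 0) in the muscle gates of E9.5 (blue) and E11.5 (red), with exact 95% Poisson intervals as bars. Itga4 was near 0 at E9.5 and between 58.3 and 117 in the E11.5 gates, Itga6 was higher at E9.5, and Itga7 stood above 1 only in the E11.5 Acta1 gate.

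The share of cells with a UMI showed the same difference at equal depth. After each cell had been thinned at random to 5000 UMIs, Itga4 was found in 0.495% of 1011 Pax3/Pax7 cells at E9.5 (0.161 to 1.15, Clopper-Pearson) and in 25.7% of 471 at E11.5 (21.8 to 29.9). Itga6 was found in 24.1% and 4.67%. Unthinned, the shares were 2.45% and 45.9% for Itga4, and 52.7% and 12.1% for Itga6. In red blood cells, which should hold little of either, thinned shares were 0.952% at E9.5 and 0 of 122 cells at E11.5 for Itga4, and 2.86% and 0 for Itga6. Median depths before thinning were 15308 and 15937 UMIs in the Pax3/Pax7 gates and 14470 and 16833 in the red blood cells. The thinned E9.5 red blood cell share of Itga4 was 1 of 105 cells (0.0241 to 5.19), and unthinned it was 1.75%. With 1 cell it cannot be told whether the E9.5 Pax3/Pax7 share of Itga4 lay above this background.

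The mix of alpha chains shifted accordingly. In the E9.5 Pax3/Pax7 gate Itga6 gave 57.4% of all integrin alpha UMIs (55.1 to 59.8), Itga9 24.3% and Itga4 1.43%. In the same gate at E11.5 Itga4 gave 57.4% (54.7 to 60), Itga9 18.5% and Itga6 5.11%. Itga4 kept the greater part of the mix in the E11.5 Myog gate, with 66.7%, and in the Acta1 gate, with 55.6%, while in the 25 E9.5 cells of the Myog gate Itga6 gave 75% and Itga4 had 0 of 72 alpha UMIs. The mix thus differed between the stages in the Myog gate as well as in the Pax3/Pax7 gate, though the E9.5 Myog gate rests on few cells.

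**Figure D2:**
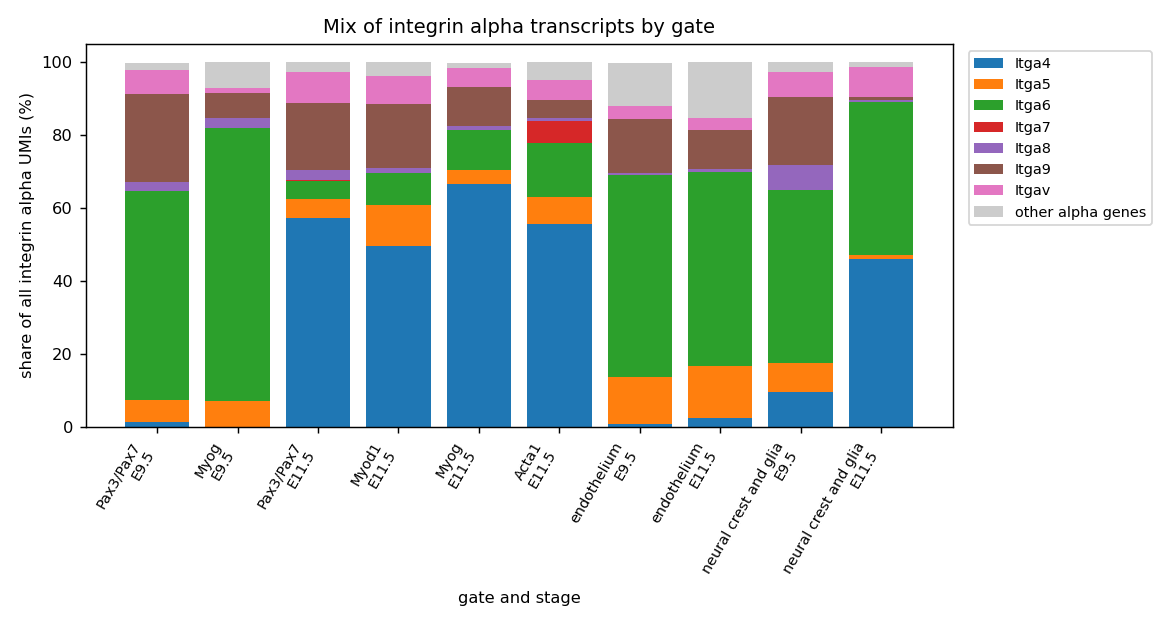
Share of all integrin alpha UMIs (vertical axis, %) taken by each alpha gene in 6 muscle gates and, for comparison, in endothelium and in neural crest and glia at both stages. Itga6 (green) took 57.4% in the E9.5 Pax3/Pax7 gate, where Itga4 (blue) took 57.4% at E11.5, and in endothelium Itga6 took 55.3% at E9.5 and 53.3% at E11.5.

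Within the E11.5 library, the Acta1 gate was set against the Pax3/Pax7 gate, which compares differentiating with less differentiated muscle cells. Sgca differed most, with 1.72 UPM in the Pax3/Pax7 gate, 2.63 in the Myod1 gate, 10.2 in the Myog gate and 28.8 in the Acta1 gate. The Myog and Acta1 levels lay apart from each other and from the earlier gates, while the Myod1 and Pax3/Pax7 levels did not lie apart. The log2 ratio of the Acta1 over the Pax3/Pax7 gate was 4.07 (3.25 to 4.99), a 16.8-fold difference.

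Itga6 was at 8.46, 10.5, 19.4 and 26.1 UPM in the same 4 gates, a log2 ratio of 1.63 (1.15 to 2.10) between the last and the first. With cells that also passed a tissue gate kept, the Pax3/Pax7 gate was at 23.2 and the Acta1 gate at 26.2, and this ratio was 0.17. The E11.5 Acta1 level was still under the 55.4 of the E9.5 Pax3/Pax7 gate. Itga9 ran the opposite way, at 30.5, 20.8, 19.2 and 8.6, a log2 ratio of -1.83 (-2.44 to -1.27). Itgb1 was at 136 in the Pax3/Pax7 gate and 117 in the Myod1 gate, differed by a log2 ratio of -0.25 (-0.38 to -0.11) between the Myog and the Pax3/Pax7 gate, and was at 216 in the Acta1 gate. The Acta1 level lay above the others by a log2 ratio of 0.67 (0.53 to 0.80) over the Pax3/Pax7 gate and of 0.91 (0.76 to 1.06) over the Myog gate.

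Itga7, the laminin receptor chain of mature muscle fibres, was found almost entirely in the Acta1 gate among the E11.5 muscle gates. It had 3 UMIs in the Pax3/Pax7 gate, 0 in the Myod1 gate, 2 in the Myog gate and 36 in the Acta1 gate, where it reached 10.7 UPM (7.48 to 14.8). Its log2 ratio of the Acta1 over the Myog gate was 5.08, with an interval of 3.13 to 8.18. The 0 in the Myod1 gate allows a level of up to 0.717 UPM.

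Itga4 hardly moved between the first and last of these gates, at 94.9 and 97.9 UPM, but it was lower in the Myod1 gate, at 58.3, and higher in the Myog gate, at 117. Dag1 was at 37, 33.5, 43 and 52.5 in the 4 gates, a log2 ratio of 0.50 (0.23 to 0.78) between the last and the first. Itga5 was at 8.34, 13.1, 6.46 and 13.1, Itgav at 13.7, 9.09, 8.82 and 10.1, and Itga8 at 4.42, 1.43, 1.57 and 1.48 UPM.

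Of the 8 members with 50 UMIs, 2 were at least 2-fold higher in the Acta1 than in the Pax3/Pax7 gate (Sgca and Itga6) and 1 lower (Itga9), against 10.9% and 21.0% of 10007 genes. Between the Myog and the Pax3/Pax7 gate 2 of 8 were higher (Sgca and Itga6) and 0 lower, against 4.23% and 6.45% of all genes. Sgca and Itga5 were at least 2-fold higher and Itga9 at least 2-fold lower in the Acta1 than in the Myog gate, against 9.83% and 11.2% of all genes. Itga5 sat at the border of this rule, with a log2 ratio of 1.02 (0.37 to 1.67). Between the Myod1 and the Pax3/Pax7 gate none of 7 members differed 2-fold, nor did many genes at all, with 0.223% higher and 1.25% lower. The Itga6 difference between the Myog and the Pax3/Pax7 gate, a log2 ratio of 1.19 (0.76 to 1.64), turned to -0.26 when cells that also passed a tissue gate were kept, and neither Itga6 call then held.

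The cells of the Acta1 gate were further split into 3 groups of 64 or 65 cells by their Acta1 level. Sgca was at 18.2, 20.2 and 52.7 UPM in the lowest, middle and highest group, and Itga7 at 0, 14.1 and 20.7. Itgb1 was at 157, 235 and 271 and Itga6 at 17.4, 28.1 and 35.1, whereas Itga9 was at 15.8, 6.15 and 2.07. The unthinned share of cells with an Itgb1 UMI did not follow its level, at 84.6%, 83.1% and 67.2%. For Itga6 the share was 21.5%, 26.2% and 29.7%. Itga4, with 91.7 in the lowest and 117 in the highest group, and Dag1, with 54.5 and 45.5, had log2 ratios whose intervals held 0. Levels are shares of all UMIs of a group, Acta1 included, and this was not corrected for.

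**Figure D3:**
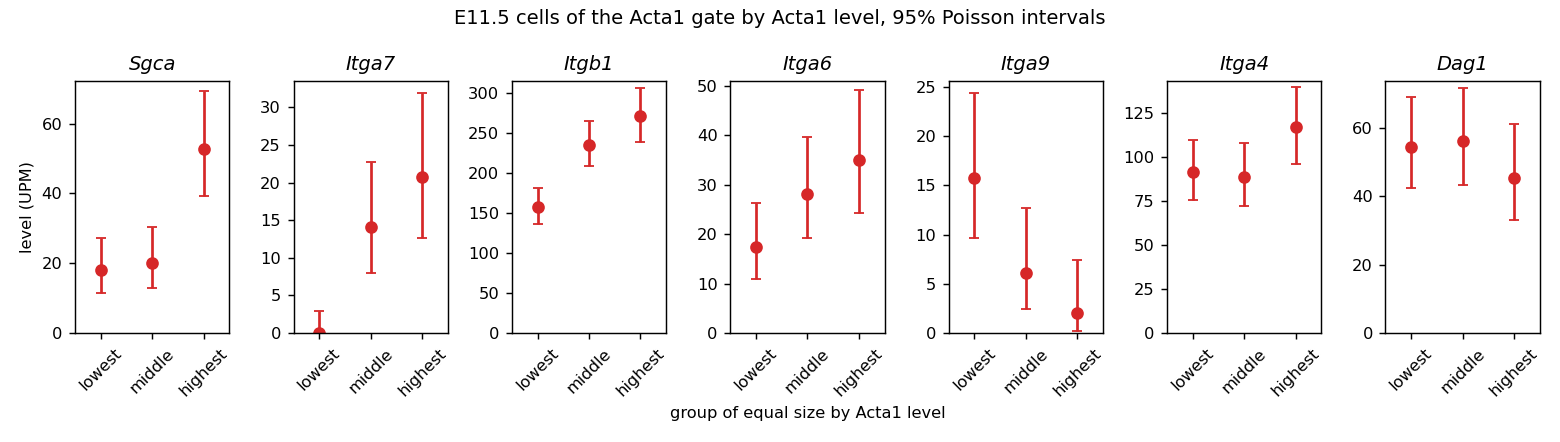
Levels of 7 members in UPM (vertical axes, each from 0) in the lowest, middle and highest group of E11.5 Acta1 gate cells by Acta1 level, with exact 95% Poisson intervals. Itga7 had 0 UMIs in the lowest group and 20 in the highest, and Itga9 had 20 and 2.

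The cells of the E11.5 Pax3/Pax7 gate were not uniform. Cells of the Pax3/Pax7 gate with a Pax7 UMI had Itga4 at 125 UPM and those without at 45.3, a log2 ratio of 1.47 (1.20 to 1.74). Itga4 was the 1 member at least 2-fold higher in this split, against 1.53% of all genes higher and 1.5% lower, and Itga9 stood at 36.3 and 21.2. The cells with Pax7 were somewhat deeper, with a median of 17251 against 14208 UMIs. Cells with fewer than 3 Myog UMIs can enter this gate. A Myog UMI was found in 19% of the cells with Pax7 and in 7.28% of those without. Split instead by Myf5, an early myogenic determination factor, Itga4 was at 124 in the cells with at least 2 Myf5 UMIs and at 70.9 in the others, Itga9 at 40.3 and 22.4, and Itgav at 8.93 and 17.7. At E9.5 the same Myf5 split left Itga4 at 0.815 and 1.47 UPM, both from few UMIs, and Itga6 at 68.4 and 53.4.

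Differentiating cells at E9.5 were few, 25 in the Myog gate and 7 in the Acta1 gate. Dag1 was higher in this Myog gate, at 101 UPM against 31.4 in the Pax3/Pax7 gate, a log2 ratio of 1.68 (1.24 to 2.09). It was the 1 member at least 2-fold higher, against 4.64% of all genes, while Itga9 and Itgav were at least 2-fold lower, against 9.78%, from only 5 and 1 UMIs. Itga6 was at 105 against 55.4, and Itgb1 at 112 against 104. In the Acta1 gate at E9.5 Dag1 was at 109 (62.2 to 177) and Itga6 at 163 (105 to 243), from 16 and 24 UMIs. The E9.5 Myog gate held 85.2 UPM of the 3 sclerotome genes, against 414 in the sclerotome gate, with Nkx3-2 at 0, and their part in these levels was not tested.

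Across all gates with at least 50 cells, each member had its own order of levels. Itgb1 was found everywhere, with the highest level in endothelium at E11.5 (342 UPM) and at E9.5 (269), which lay apart from each other, and the lowest in red blood cells (22.2 and 11.5). Itga5, the classic fibronectin receptor chain, was also highest in endothelium, at 56.7 and 30.1. Itga6 was highest in E11.5 endothelium, at 213, which did not lie apart from the 188 of E11.5 neural crest and glia, followed by white blood cells at 140 and E9.5 endothelium at 128. Itga9 was at 43.3 in E11.5 endothelium, 37.9 in E9.5 Prrx1/Twist2 mesenchyme, 34.3 in E9.5 endothelium and 30.5 in the E11.5 Pax3/Pax7 gate. Neighbours in this order did not lie apart.

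Itga4 was highest in E11.5 neural crest and glia, at 206 UPM, and the E11.5 Myog gate came next at 117. The Acta1 and Pax3/Pax7 gates of E11.5 followed and did not lie apart from each other, and white blood cells, at 66.6, did not lie apart from the Myod1 gate, at 58.3. Neurons came next, at 18.6. Itga4 was lower in the other E11.5 gates, for example 5 in sclerotome, 3.22 in Prrx1/Twist2 mesenchyme, and 0 in neural tube and epithelium. Sgca had at most 1 UMI in any gate outside muscle, and its 4 highest levels were those of the 4 E11.5 muscle gates.

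Itga7 had its second highest level in E11.5 neurons, at 4.1 UPM from 20 UMIs, which lay apart from the next gate. Dag1 was highest in epithelium, at 125 and 124 UPM at the 2 stages, more than in the E11.5 Acta1 gate at 52.5. Itga8 was highest in the E11.5 gate on Pax2, Pax8, Emx2, Wt1 and Gata3, at 24.6, with 21.7 in the Scx gate and 19.9 in Prrx1/Twist2 mesenchyme, and neighbours in this order did not lie apart. At E9.5 it was at 15.7 in the first of these gates and at 6.25 in Prrx1/Twist2 mesenchyme. Itgav reached 37.6 in E11.5 neural tube and 36.8 in neural crest and glia, and the E9.5 Pax3/Pax7 gate was among its lowest, at 6.14.

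**Figure D4:**
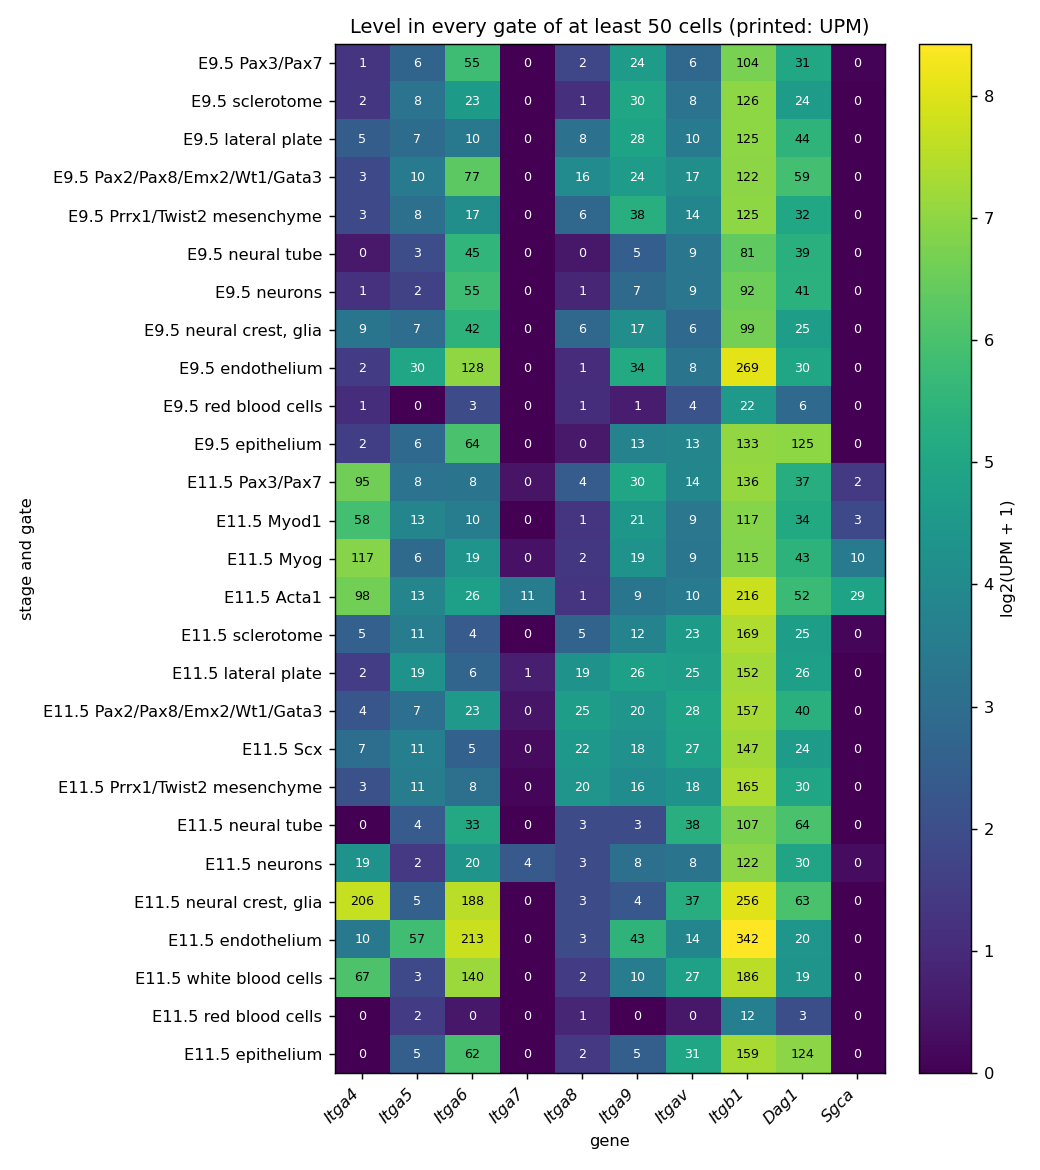
Level of each member (columns) in every gate of at least 50 cells (rows, by stage), coloured by log2 of UPM plus 1 and labelled with the rounded UPM. Sgca was above 1 UPM only in the E11.5 muscle gates among the rows drawn, Itga4 is high in E11.5 muscle gates, neural crest and glia and white blood cells, and Itgb1 is present in every row.

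The stage difference of the Pax3/Pax7 gate was set beside that of the 10 other gates with enough cells at both stages. The share of all genes at least 2-fold higher at E11.5 was 13.6% in sclerotome, 10.7% in lateral plate mesoderm, 10.2% in the gate on Pax2, Pax8, Emx2, Wt1 and Gata3, 15.8% in Prrx1/Twist2 mesenchyme, 15.2% in neural tube, 22.4% in neurons, 13.3% in neural crest and glia, 5.38% in endothelium, 3.73% in red blood cells and 7.84% in epithelium. In the same order 3.11%, 7.24%, 4.28%, 4.3%, 9.11%, 9.17%, 4.28%, 3.8%, 47.4% and 5.25% of all genes were at least 2-fold lower. Itga6 was at least 2-fold lower at E11.5 in 5 of 9 gates with 50 UMIs, the Pax3/Pax7 gate included, and at least 2-fold higher in 1. Sclerotome, for example, went from 22.9 to 4.33 UPM, a log2 ratio of -2.41 (-2.96 to -1.88), and neurons from 55.3 to 19.5. The level was higher at E11.5 in neural crest and glia, at 42.5 and 188, a log2 ratio of 2.14 (1.90 to 2.40), and, within 2-fold, in endothelium, at 128 and 213, a log2 ratio of 0.73 (0.50 to 0.96). A lower Itga6 level at E11.5 was thus seen in several tissues besides muscle.

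Itga4 was at least 2-fold higher at E11.5 in 4 of 5 gates with 50 UMIs. In these 4 most UMIs came from E11.5, so the UMI minimum favours gates that are high at that stage. Over all 11 gates 7 ratios were above 0 and 1 below, in lateral plate mesoderm, at 1.92 against 4.58 UPM from 3 and 18 UMIs. Neural tube, epithelium and red blood cells had 0 UMIs at E11.5 and 10, 4 and 2 at E9.5. The log2 ratio of Itga4 was 6.10 in the Pax3/Pax7 gate and 4.58 (4.09 to 5.12) in neural crest and glia. It was 3.87 (2.69 to 5.35) in neurons, 1.72 (0.67 to 2.94) in sclerotome and 0.30 (-0.59 to 1.29) in Prrx1/Twist2 mesenchyme. The interval of the Pax3/Pax7 gate did not overlap with those of the other gates. Its E9.5 level, however, was 1.38 UPM from 25 UMIs, beside 1.17 in E9.5 red blood cells, so the ratio rests on a low count. With cells of other tissues kept in the muscle gates it was 5.09, inside the intervals of neural crest and glia and of neurons. Itgav was at least 2-fold higher in 6 of 10 gates and lower in none, with log2 ratios between -0.09 and 2.54. Itgb1 was higher at E11.5 in 10 of 11 gates, but at least 2-fold in neural crest and glia alone, where it went from 99.2 to 256.

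Itga9 was at least 2-fold lower at E11.5 in sclerotome, with a log2 ratio of -1.27 (-1.62 to -0.92), in Prrx1/Twist2 mesenchyme, with -1.25 (-1.52 to -0.97), and in neural crest and glia, with -2.11 (-3.05 to -1.26). In the Pax3/Pax7 gate it was slightly higher, with 0.38 (0.15 to 0.61), and this interval did not overlap with those of the other 3. Itga8 was higher at E11.5 in sclerotome, lateral plate mesoderm and Prrx1/Twist2 mesenchyme, in the last at 19.9 against 6.25. Dag1 differed 2-fold in neural crest and glia only, at 62.6 against 25.3.

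**Figure D5:**
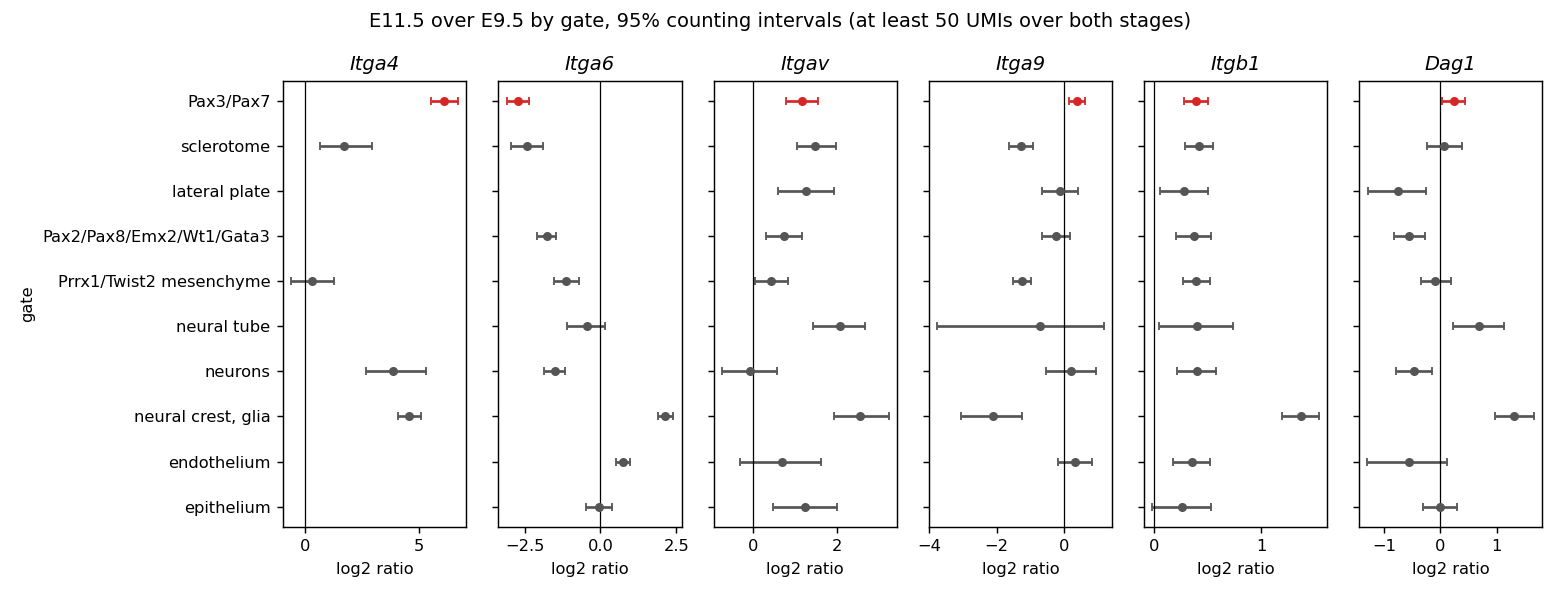
Log2 ratio of the level at E11.5 over that at E9.5 (horizontal axes) for 6 members in each gate (rows) with at least 50 UMIs of the gene over both stages, with exact 95% counting intervals and the Pax3/Pax7 gate in red; red blood cells are not drawn. Itga4 was highest in the Pax3/Pax7 gate, at 6.10, and Itga6 was below 0 there and in most gates but 2.14 in neural crest and glia and 0.73 in endothelium.

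Genes that work with these receptors were read in the same comparisons, from 5 lists of 90 genes. Of 11 genes of the dystrophin-glycoprotein complex with 50 UMIs, 5 were at least 2-fold higher and 2 lower in the Acta1 than in the Pax3/Pax7 gate at E11.5, with a median log2 ratio of 0.63, against 10.9% and 21.0% of all genes and a median of -0.31. Sspn (sarcospan) was at 8.46 UPM in the Pax3/Pax7 gate and 35.6 in the Acta1 gate, and Dmd (dystrophin) at 10.4 and 41.8. The syntrophin Sntb2 and the dystrobrevin Dtnb were lower, at 4.15 against 19.9 and 6.53 against 17.2. In the Myog over the Pax3/Pax7 gate 1 of 10 genes of the list was higher and 2 lower, against 4.23% and 6.45% of all genes. The median there was -0.44, against -0.13. Between stages in the Pax3/Pax7 gate 4 of 9 genes were higher at E11.5 and 0 lower, against 11.9% and 4.81% of all genes, with medians of 0.75 and 0.08. Sspn, Dtna and Sgcd were among them, while Dmd was at 10.6 and 10.4. A like stage difference of the list was seen outside muscle, though not in every gate. In sclerotome 3 of 8 genes were higher and 0 lower, with a median of 0.81. In lateral plate mesoderm 0 of 5 differed 2-fold, with a median of 0.37. Of all genes 13.6% were higher in sclerotome and 10.7% in lateral plate mesoderm.

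The enzymes that build the laminin-binding sugar of dystroglycan hardly differed. None of 16 was 2-fold higher and 1, B3galnt2, was lower in the Acta1 gate, at 8.31 against 19.5 UPM, and none of 17 differed 2-fold between the stages. Of all genes 10.9% and 21.0% were higher and lower in the Acta1 gate, and 11.9% and 4.81% between the stages. The list's median log2 ratio was -0.19 and 0.16, against -0.31 and 0.08. Of the proteins that link integrins to actin, 6 of 17 were higher and 1 lower in the Acta1 gate, with a median of 0.69. Itgb1bp2 (melusin, a muscle protein that binds the beta chain) was at 0.736 and 241 UPM, Parvb at 5.27 and 37.7, and Pxn (paxillin) at 8.71 and 41.8, while Tns3 (tensin) was lower, at 17.2 against 42.2. Ilk, the kinase-like scaffold of the adhesion, was at 74.8 and 143, within 2-fold. In the Myog over the Pax3/Pax7 gate 2 of 16 genes of this list were higher and 0 lower, against 4.23% and 6.45% of all genes. The median there was -0.19, against -0.13.

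The listed ligands, which are matrix proteins and the cell surface protein Vcam1, differed in both directions. In the Acta1 gate 9 of 17 were at least 2-fold lower than in the Pax3/Pax7 gate and 2 higher, with a median log2 ratio of -1.56, against 21.0% and 10.9% of all genes and a median of -0.31. Fn1 (fibronectin) was at 19.9 against 114 UPM, Vcam1 at 4.15 against 24.7, Tnc (tenascin C) at 3.86 against 20.1, and Lama4 at 1.48 against 14.5. Lama2, the laminin alpha chain of muscle basement membrane, was higher, at 52.5 against 20.5. Between stages in the Pax3/Pax7 gate, 8 of 18 ligands were higher and 2 lower at E11.5, against 11.9% and 4.81% of all genes, with medians of 0.98 and 0.08. Lama2 was at 0.443 at E9.5 and 20.5 at E11.5, Lama4 at 0.221 and 14.5, Vcam1 at 0.664 and 24.7 and Tnc at 0.885 and 20.1. The laminin chains Lama1 and Lama5 were lower, at 8.74 and 3.19 and at 13.6 and 5.76. The list also differed between stages outside muscle. In sclerotome 7 of 15 ligands were higher and 1 lower, with a median of 0.93, against 13.6% and 3.11% of all genes. In neural tube 4 of 14 were higher and 4 lower, with a median of -0.09, against 15.2% and 9.11%.

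Genes with the most similar pattern were sought by the Pearson correlation of log2(UPM + 5) over the 27 gates, among 11648 genes with at least 500 UMIs. The gates share 2 libraries, so the values are descriptions. Sgca and Itga7 themselves had only 221 and 81 UMIs, under the 500 asked of the other genes. Sgca was above 1 UPM only in the E11.5 muscle gates, and Itga7 only in the E11.5 Acta1 gate and neurons. Their r values thus rest on few gates. The pattern of Sgca was nearest to those of Neb, Tmem8c and Chrng, each with r = 0.99: nebulin of the thin filament, the fusogen Myomaker and the embryonic acetylcholine receptor chain. For Itga7 they were Fabp3 (r = 0.95), Akap5 (0.93) and Rab40b (0.91). For Itgb1 they were Cd81 (r = 0.95), a membrane protein, Vcl (0.94), the adhesion protein vinculin, and Ranbp9 (0.94). For Itga4 the nearest were Adamts5 (r = 0.82), Tank (0.80) and Gamt (0.80), and 0.82 was the lowest nearest value of the 10 members. The nearest value was 0.87 for each of Itga5, Itga6 and Itga9. Itga8 lay nearest to Alx4 (r = 0.89).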

How the data were processed

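Somites between the limb buds were dissociated and run on the 10x Chromium system, 1 library per stage. Per the labels and the methods of the authors, reads were aligned to mm10 with Cell Ranger 3.0.1, and the deposited values are raw UMI counts per gene and barcode, without normalization. Cells with at least 200 and fewer than 6500 genes and under 15% mitochondrial UMIs were kept. Cells that passed several tissue gates, or a muscle gate and a tissue gate, entered no class (1101 at E9.5, 306 at E11.5). Of these, 992 at E9.5 and 167 at E11.5 had passed the Pax3/Pax7 gate. Cells in no gate (3795 and 3182) also entered no class. Tissue gates needed 2 genes of a list and 3 UMIs, the Scx gate 3 Scx UMIs, Prrx1/Twist2 mesenchyme 2 Prrx1 and 1 Twist2 UMIs, and red blood cells 10% globin UMIs.

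UMIs were summed per gate, because cells of pooled embryos are not replicates. Levels have exact Poisson intervals, ratios the exact interval of 2 Poisson counts and shares of cells Clopper-Pearson intervals, all covering counting error only. Levels lie apart where the interval of their ratio excludes 1. A count of 0 allows up to 3 counts. A gene was called at a ratio of 2 in either direction with at least 50 UMIs over both gates. The calculation was tested on simulated Poisson counts, the model that the intervals assume. This checks the arithmetic and does not cover spread between cells or embryos. Scrublet (scanpy 1.11.5) scored doublets, which were removed only in alternatives. Its automatic threshold marked 6.26% of E9.5 barcodes and no E11.5 barcode. Python 3.11.15, numpy 2.4.6, scipy 1.17.1, pandas 2.3.3 and matplotlib 3.10.9 were used.

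The members and lists were chosen with earlier results of these data known. All members are named. By rule, other genes were limited to gate and marker genes, the 3 nearest patterns per member and list genes. Of the list genes past 2-fold, these were the 3 highest and 3 lowest per comparison. Not all genes that the rule allows are given. The values of 1 list gene are not reported here. Tnc, Ilk, Itgam, Itgb2 and some values of Dmd, Itgb8, Itga8 and Npnt across gates fall outside this rule, being chosen once their values had been seen. Gene positions are from GENCODE M21 on GRCm38 and promoters from RefSeq. Alternatives were removal of doublets, thresholds 1 UMI higher, cells thinned to 5000 UMIs, means over cells, at least 1000 genes per cell, tissue cells kept and no UMI minimum. Removal of the 6% highest doublet scores and of cells with neural UMIs was added after seeing the data.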

Additional observations from a re-analysis of the deposited data

How the results depend on the processing

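The log2 ratios of the members in the 5 planned comparisons were recomputed under the alternatives. Removal of cells with neural UMIs and no UMI minimum were not among those counted here. This gave 293 values, of which 274 stayed within the counting interval of the reported value. In 7 values of 6 ratios the sign was the opposite. Of these ratios 1 was past 2-fold as reported: Itga6 in the Myog over the Pax3/Pax7 gate at E11.5, at -0.26 with tissue cells kept in the muscle gates. The other ratios, all reported under 2-fold, were Itga6 in the Myod1 over the Pax3/Pax7 gate (0.31 to -0.99, tissue cells kept), Itga4 in the Acta1 over the Pax3/Pax7 gate (0.04 to -0.32, means over cells, and to -0.06, thinned), Itgav in the Acta1 over the Myog gate (0.19 to -0.17, means over cells), Sgca in the Myod1 over the Pax3/Pax7 gate (0.62 to -0.25, thinned) and Itga7 in the Myog over the Pax3/Pax7 gate (-0.22 to 0.30, thresholds 1 UMI higher). Over these values, the log2 ratio between the stages in the Pax3/Pax7 gate ranged from 5.09 to 6.56 for Itga4. For Itga6 it ranged from -2.79 to -1.05, and both extremes nearest to 0 came from the tissue cells kept. Removal of cells with neural UMIs gave 6.18 for Itga4 and -3.04 for Itga6, the latter outside this range. For Sgca in the Acta1 over the Pax3/Pax7 gate the log2 ratio ranged from 3.81 to 4.41. For Itga7 it ranged from 2.58 to 5.31 over the Pax3/Pax7 gate and from 3.04 to 5.89 over the Myog gate. Both lower ends lay below the counting intervals, which began at 3.20 and 3.13. Of the counts of members past 2-fold, the Acta1 over the Pax3/Pax7 gate had 2 lower with means over cells and 1 higher with tissue cells kept, where Itga6 was at 0.17. The Myog over the Pax3/Pax7 gate had 1 higher with thinned cells and 1 with tissue cells kept. The Acta1 over the Myog gate had 1 higher with thresholds 1 UMI higher, with means over cells and with tissue cells kept, and 0 lower with thinned cells. The counts between the stages and between the Myod1 and Pax3/Pax7 gates stayed as they were under the alternatives run. The cause of these shifts was not tested. Without a UMI minimum 48.8% of all genes were past 2-fold in the Acta1 over the Pax3/Pax7 gate, 30.2% in the Myog over the Pax3/Pax7 gate, 38.2% in the Acta1 over the Myog gate, 38% between the stages and 20.6% in the Myod1 over the Pax3/Pax7 gate. Scrublet calls could be removed only between the stages, since none were made at E11.5. Thinning moved 20 of 70 levels beyond their interval. Itga7 between the stages and between the Myod1 and Pax3/Pax7 gates has no ratio, since 1 gate is at 0. No paired analysis was possible because each stage had 1 library and the labels give no replicate numbers. Itga7 outside the E11.5 Acta1 gate, and Sgca outside the E11.5 Acta1 and Myog gates, rest on few UMIs. The same holds for all members in the E9.5 Myog and Acta1 gates. Differences in all these gates are often not detectable at this depth.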

Other observations

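Npnt encodes nephronectin, a matrix protein and a ligand of the integrin with the Itga8 chain. It stood at 6.62 UPM in the E11.5 Pax3/Pax7 gate, 5.5 in the Myod1 gate, 10.9 in the Myog gate and 294 (276 to 313) in the Acta1 gate. The next highest levels were in epithelium, at 84.5 at E11.5 and 69 at E9.5. Itga8 in the same Acta1 gate was at 1.48, from 5 UMIs, against 21.7 in the E11.5 Scx gate and 19.9 in Prrx1/Twist2 mesenchyme, where Npnt was at 0.735 and 1.72. The gate on Pax2, Pax8, Emx2, Wt1 and Gata3 held both transcripts, with Itga8 at 15.7 and Npnt at 33.8 at E9.5 and with 24.6 and 6.99 at E11.5.

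Among the 18 other integrin genes, Itgb6, a beta chain that pairs with Itgav and is usually described in epithelia, was at 40.6 UPM (34.1 to 48) in the E11.5 Acta1 gate and 7.09 in the Myog gate, against 0.123 from 1 UMI in the Pax3/Pax7 gate. The log2 ratio of the Acta1 over the Pax3/Pax7 gate was 8.37, with an interval of 5.87 to 13.69. Itgav itself was at 10.1 in that gate. Itgb8, another partner of Itgav, went the other way, with 45 UMIs in the Pax3/Pax7 gate and 1 in the Acta1 gate. That is under the 50 UMIs asked for a call, and the Pax3/Pax7 gate holds more UMIs in all. Of the 18 genes, 2 had 50 UMIs in this comparison, with 1 at least 2-fold higher and 0 lower. Among all genes 10.9% were higher and 21.0% lower. White blood cells held the leukocyte chains Itgam, at 68.3, and Itgb2, at 36.8.

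Detection of members in the same cell was read after thinning to 5000 UMIs. In the E11.5 neural crest and glia gate Itga4 and Itga6 were both found in 56 of 178 cells, where their separate shares would give 56.2. In the E11.5 Acta1 gate Itga4 and Itgb1 were both found in 31 of 158 cells, against 31, and Sgca and Dag1 in 6, against 5.68. Itga9 and Itgb1 were both found in 20 cells of the E11.5 Myod1 gate, against 12.8, and in 2 cells of the Acta1 gate, against 4.96. Over the 27 combinations of pair and gate where at least 5 cells would be given, the count was between 0.708 and 1.56 times that number. At this depth such counts are a weak guide to which cells hold both transcripts.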
